A study of Mus musculus with 4 samples.

Results

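The nuclear genes of oxidative phosphorylation were examined for Sub1 peaks in leukemia stem cells (LSCs) and hematopoietic stem cells (HSCs) of mouse bone marrow. Members were the nuclear protein-coding RefSeq genes of GRCm38 whose symbols begin with Ndufa, Ndufb, Ndufc, Ndufs, Ndufv, Uqcr, Cox4, Cox5, Cox6, Cox7, Cox8 or Atp5, together with Sdha, Sdhb, Sdhc and Sdhd. The rule used names alone and found 96 genes among 21887 protein-coding genes. It also took in 8 complex I assembly factors, whose symbols begin with Ndufaf. Sub1, a DNA-binding cofactor of transcription by RNA polymerase II, was profiled by CUT&Tag, in which an antibody directs a transposase to cut and tag the DNA near its target. The LSCs were sorted as c-Kit+ CD34+ CD16/32+ cells without Sca-1 or lineage markers, and came from MLL-AF9-driven mice, MLL-AF9 being a leukemia fusion gene. The HSCs were CD48- CD150+ LSK cells, and the labels name no fusion gene for their mice. Both groups carried the same genotype, Nup214fl/+, so no sample lacks the floxed allele. Each group had 2 libraries, and the labels do not say whether these came from separate mice.

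The mitochondrial respiratory chain passes electrons from NADH and succinate to oxygen and pumps protons, and ATP synthase uses the proton gradient to make ATP. Complex I oxidises NADH, complex II oxidises succinate, complex III hands electrons from ubiquinol to cytochrome c, complex IV (cytochrome c oxidase) reduces oxygen, and complex V is the ATP synthase. Most subunits are made in every tissue, but several subunits of complex IV exist in a ubiquitous form and a form restricted to muscle, testis or lung. Resting HSCs are known for a low reliance on respiration, and leukemia stem cells of several models for a strong one. Nrf1, the ETS factor Gabpa and Yy1 are known activators of many of these genes.

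The 150 bases before an annotated start are shown for 8 members named below. Ndufa11 had the highest-ranked peak, and Atp5j shares its peak with the gene of a known activator. Cox8b, Cox7a1 and Cox6b2 are set against Cox8a, Cox7a2 and Cox6b1. No peak call or rank used these bases, and a summit need not lie in them. The Ndufa11 summit lay outside them in LSC 1, LSC 2 and HSC 1, at 445, 443 and 446 bp upstream of the start. In HSC 2 it lay inside them, 69 bp upstream. Sequences are from RefSeq (GRCm38.p6), 5′ to 3′ on the strand of the gene. Capitals mark matches on either strand to GCATGCGC (the Nrf1 core), CCGGAAG (ETS), AAGATGG (Yy1), GGGCGG (GC box), CCAAT or TATAAA.
Ndufa11, chr17:56717612-56717761, plus strand: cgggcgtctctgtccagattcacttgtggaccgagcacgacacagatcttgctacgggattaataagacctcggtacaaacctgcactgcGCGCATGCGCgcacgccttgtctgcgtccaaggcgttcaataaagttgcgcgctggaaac
Atp5j, chr16:84834977-84835126, minus strand: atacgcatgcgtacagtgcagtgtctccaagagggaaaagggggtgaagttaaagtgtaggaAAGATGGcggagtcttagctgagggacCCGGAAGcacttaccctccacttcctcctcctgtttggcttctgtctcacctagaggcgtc
Cox8b, chr7:140900447-140900596, minus strand: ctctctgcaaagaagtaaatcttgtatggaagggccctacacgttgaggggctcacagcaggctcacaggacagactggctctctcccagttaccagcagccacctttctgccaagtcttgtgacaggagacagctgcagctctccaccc
Cox8a, chr19:7217617-7217766, minus strand: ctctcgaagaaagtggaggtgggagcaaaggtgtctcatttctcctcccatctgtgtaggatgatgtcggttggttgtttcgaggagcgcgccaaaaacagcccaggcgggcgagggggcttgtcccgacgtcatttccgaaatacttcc
Cox7a1, chr7:30184021-30184170, plus strand: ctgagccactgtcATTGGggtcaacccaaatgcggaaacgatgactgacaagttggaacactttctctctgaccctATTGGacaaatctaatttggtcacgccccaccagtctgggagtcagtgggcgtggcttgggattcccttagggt
Cox7a2, chr9:79759854-79760003, minus strand: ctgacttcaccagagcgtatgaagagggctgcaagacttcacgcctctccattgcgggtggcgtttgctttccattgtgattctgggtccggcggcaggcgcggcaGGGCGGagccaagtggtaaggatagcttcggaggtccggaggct
Cox6b2, chr7:4753095-4753244, minus strand: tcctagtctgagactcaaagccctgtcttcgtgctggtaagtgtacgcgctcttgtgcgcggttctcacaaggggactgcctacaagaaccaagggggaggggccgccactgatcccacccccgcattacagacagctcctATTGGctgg
Cox6b1, chr7:30626115-30626264, minus strand: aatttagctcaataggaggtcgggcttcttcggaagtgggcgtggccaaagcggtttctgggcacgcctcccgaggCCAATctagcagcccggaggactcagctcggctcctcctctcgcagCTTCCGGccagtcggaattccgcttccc

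The ubiquitous form held more CpG dinucleotides than its tissue-restricted partner in each of these pairs. Cox8b held 1 against 10 in Cox8a, Cox7a1 held 4 against 11 in Cox7a2, and Cox6b2 held 7 against 12 in Cox6b1. Cox7b2 and Cox7b also have listed starts but were not compared in this way. Over the longer window of 250 bases before to 50 after the start, 78 members had 83 listed promoters, against 32851 promoters of 27025 genes. Only 17492 genes of the protein-coding set used below have a listed start, so all promoters here include those of other genes. The Nrf1 core lay in 14.5% of the members' promoters and in 2.71% of all promoters. ETS letters were found in 22.9% against 8.86%, and Yy1 letters in 14.5% against 6.34%. GC boxes (43.4% against 35.7%), CCAAT (42.2% against 37.4%) and TATAAA (10.8% against 13.6%) lay nearer to the shares of all promoters. The median GC content was 58.3% in the members' promoters and 52.7% in all promoters. Their median number of CpG dinucleotides was 20, against 7 in all promoters. The part of this composition in the shares of the letters was not tested. A match to such letters describes the sequence and shows no binding.

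The authors deposited 1 list of called peaks per library. The lists held 41097 and 34185 peaks in LSC 1 and LSC 2, and 115881 and 235680 peaks in HSC 1 and HSC 2. Read totals were not given, so the depth behind a peak is unknown, and no IgG or input library was analysed here. The LSC samples too are labelled as hematopoietic stem cells in the cell type field, and a cell number is stated for HSCs alone. Peak names in every list begin with H4-Cut, a prefix left unexplained by the labels, so Sub1 as the target rests on the labels. Each peak carries the authors' fold, its enrichment over the caller's background, which is used below only to rank peaks within a list. Genes of the sorted phenotype gave peaks in both groups: all 10 listed granulocyte-monocyte progenitor genes had a peak in every library. The 12 listed HSC genes had a peak in 8 and 3 cases in LSC 1 and LSC 2, against 11 and 12 cases in HSC 1 and HSC 2. The longer HSC lists mark more genes of any kind: 68.9% and 82.4% of all protein-coding genes, against 61.8% and 57.3% in LSC 1 and LSC 2. For 12 striated muscle genes the counts were 4 and 4 in the LSC libraries, against 7 and 11 in the HSC libraries. Peaks are not RNA levels, so they cannot establish a cell type. With 2 libraries against 2, the smallest two-sided exact permutation p is 0.33 over 6 assignments, so every difference between LSCs and HSCs below is a description.

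Nearly all genes of oxidative phosphorylation carried a Sub1 peak in both cell types. A gene was counted when a peak overlapped it, extended by 1 kb on each side. This held for 90 and 90 of the 96 members in LSC 1 and LSC 2, against 93 and 92 in HSC 1 and HSC 2. Among all protein-coding genes the share was 61.8% and 57.3% in LSC 1 and LSC 2, against 68.9% and 82.4% in HSC 1 and HSC 2. The members' shares were 93.8% and 93.8% in the LSC libraries and 96.9% and 95.8% in the HSC libraries. In all 4 libraries together 90 members had a peak (93.8%), against 55.4% of all genes. The members are also short genes, with a median length of 7230 bp against 17200 bp for all genes and so shorter windows. No member had a peak in both LSC libraries and in neither HSC library, a pattern that 0.0959% of all genes showed. The reverse pattern was found in 2 members (2.08%), Cox7b2 and Cox8b, against 7.71% of all genes.

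The peaks on the members were also strong ones. Each gene was ranked by the fold of its strongest peak and given a percentile among all 21887 genes, with genes lacking a peak tied at the bottom. The members' median percentile was 88.4 and 84.8 in LSC 1 and LSC 2, against 79.1 and 79.3 in HSC 1 and HSC 2. The top 10% of all genes held 42 and 39 members in LSC 1 and LSC 2 (43.8% and 40.6%), and 33 and 27 in HSC 1 and HSC 2 (34.4% and 28.1%). Their median fold was 185 and 123 in the LSC lists, where genes with a peak had medians of 103 and 73.9. In the HSC lists it was 36.1 and 48.4, where genes with a peak had 23.8 and 22.1. Folds of different lists rest on different backgrounds, so the higher LSC folds are not read as more Sub1.

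**Figure D1:**
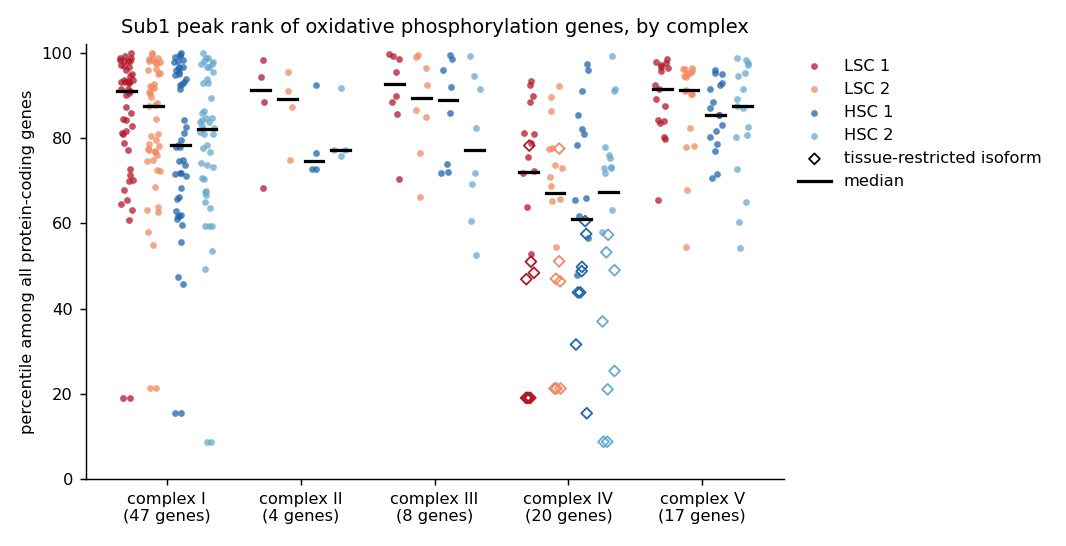
Each point is a gene's percentile among all protein-coding genes (vertical axis, by the fold of its strongest peak) in LSC 1, LSC 2, HSC 1 and HSC 2, by complex; black lines are medians. Complex IV has the lowest medians in each library (72.0 and 67.2 in the LSC libraries, 61.1 and 67.4 in the HSC libraries), where the 8 tissue-restricted isoforms (open diamonds) have medians of 33.0 and 33.9 in the LSC libraries and 46.3 and 31.2 in the HSC libraries; Cox6b2, the highest diamond in both LSC libraries, stands at 78.2 and 77.5. The 12 ubiquitous complex IV genes alone have medians of 79.8 and 73.3 in the LSC libraries and 79.6 and 74.2 in the HSC libraries. These lie below every other complex in LSC 1, LSC 2 and HSC 2, but above complexes I and II (78.4 and 74.6) in HSC 1.

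In complex I, 45 of 47 genes had a peak in all 4 libraries. The median percentile was 91.0 and 87.4 in LSC 1 and LSC 2, against 78.4 and 82.2 in HSC 1 and HSC 2. The highest-ranked member of all was Ndufa11, an accessory subunit of the membrane arm, at chr17:56717762-56724248. The fold of its strongest peak was 376 and 286 in LSC 1 and LSC 2, and 110 and 145 in HSC 1 and HSC 2. It stood at percentiles 99.8 and 99.8 in the LSC libraries, against 99.9 and 99.8 in the HSC libraries. That peak also overlapped the window of Vmac in every library, and its summit lay 445 and 443 bp upstream of the Ndufa11 start in LSC 1 and LSC 2, and 446 and 69 bp upstream in HSC 1 and HSC 2.

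Next in complex I came Ndufs7, a core subunit holding the last iron-sulfur cluster before ubiquinone. Its fold was 290 and 200 in LSC 1 and LSC 2, against 77.6 and 110 in HSC 1 and HSC 2. Its summit lay 81 and 80 bp downstream of the start in LSC 1 and LSC 2, and 81 bp downstream in both HSC libraries, so all 4 lists place it at the same spot. The assembly factor Ndufaf3 (247 and 227 in LSC 1 and LSC 2, 83.0 and 103 in HSC 1 and HSC 2) shared its peak with Dalrd3 and Impdh2 in every library. Ndufa8, another membrane-arm subunit, reached a fold of 313 and 223 in LSC 1 and LSC 2, against 68.8 and 84.4 in HSC 1 and HSC 2. Its summits lay between 213 and 218 bp downstream of the start.

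Not every core subunit ranked high. Ndufs3, a core subunit of the ubiquinone-reducing module, had a fold of 70.9 and 51.8 in LSC 1 and LSC 2, and 8.84 and 17.5 in HSC 1 and HSC 2. Its percentiles were 60.8 and 63.2 in the LSC libraries and 45.7 and 53.5 in the HSC libraries. The 7 core genes together had medians of 90.6 and 92.7 in LSC 1 and LSC 2, against 94.9 and 85.8 in HSC 1 and HSC 2. The 30 accessory genes had 91.2 and 87.5 in the LSC libraries, against 80.5 and 82.3 in the HSC libraries, and the 8 assembly factors 93.2 and 85.6, against 72.7 and 80.3. The ranges of these classes overlapped in every library. The 2 complex I genes without a peak in any library were Ndufb4b and Ndufb4c, short copies of Ndufb4 with lengths of 471 and 485 bp. Reads from near-identical copies can be hard to place, and how the aligner treated them is not given in the sources used here.

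All 4 genes of complex II, the succinate dehydrogenase, carried a peak in every library. Sdhd, a membrane anchor, ranked highest, with percentiles of 98.3 and 95.4 in LSC 1 and LSC 2, against 92.5 and 91.8 in HSC 1 and HSC 2. Sdha, the flavoprotein, stood at 88.3 and 87.2 in the LSC libraries and at 72.7 and 77.1 in the HSC libraries. Sdhc, the other anchor, stood at 94.2 and 90.9 in the LSC libraries and at 76.4 and 77.1 in the HSC libraries. Sdhb, the iron-sulfur subunit, stood at 68.3 and 74.8 in the LSC libraries and at 72.7 and 75.8 in the HSC libraries, so its groups overlapped.

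All 8 genes of complex III carried a peak in every library. Uqcrc2, a core protein, at chr7:120635189-120659523, had a fold of 348 and 261 in LSC 1 and LSC 2, against 73.4 and 122 in HSC 1 and HSC 2. Its percentiles ran between 98.4 and 99.6 over the 4 libraries, and its peak overlapped no other gene's window. Uqcrb, a small subunit, stood at 95.5 and 86.5 in LSC 1 and LSC 2, against 72.1 and 69.3 in HSC 1 and HSC 2. Its peak was shared with Gm10767 and Mterf3 in every library. The Rieske protein gene Uqcrfs1, with no neighbour sharing its peak, stood lower, at 70.3 and 66.2 in the LSC libraries and at 74.0 and 52.6 in the HSC libraries.

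All 17 genes of complex V had a peak in every library, with medians of 91.5 and 91.3 in LSC 1 and LSC 2, against 85.4 and 87.4 in HSC 1 and HSC 2. Atp5b, the catalytic beta subunit, stood at 97.0 and 94.9 in the LSC libraries and at 94.9 and 98.6 in the HSC libraries, but on different peaks. Its summits lay 30 and 77 bp downstream of the start in LSC 1 and LSC 2, and 9061 and 8700 bp downstream, in a peak shared with Baz2a, in HSC 1 and HSC 2. The strongest Atp5b peak with a summit within 500 bp of the start had a fold of 251 and 170 in LSC 1 and LSC 2, against 40.5 and 86.9 in HSC 1 and HSC 2. The epsilon subunit gene Atp5e had a fold of 287 and 172 in LSC 1 and LSC 2, against 58.7 and 47.6 in HSC 1 and HSC 2. The alpha subunit gene Atp5a1, whose product makes up the F1 head with beta, differed more within groups than between them, at 84.1 and 54.4 in LSC 1 and LSC 2 and at 80.1 and 54.2 in HSC 1 and HSC 2. Subunit c of the rotor is encoded by Atp5g1, Atp5g2 and Atp5g3. Atp5g1 stood at 95.6 and 90.3 in the LSC libraries against 88.5 and 72.8 in the HSC libraries, and Atp5g2 at 91.5 and 94.3 against 78.6 and 82.5. Atp5g3 stood at 65.5 and 67.9 in the LSC libraries, against 70.7 and 64.9 in the HSC libraries, below the other two genes in each library.

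The peak of Atp5j, a stalk subunit gene, overlapped the window of Gabpa in every library. Its fold was 240 and 182 in LSC 1 and LSC 2, against 53.1 and 97.6 in HSC 1 and HSC 2. The 150 bases shown for it hold the ETS letters, which Gabpa is known to recognise, and the Yy1 letters. Atp5j has another listed start, and the 150 bases before that one, chr16:84835626-84835775, hold a GC box and neither of these. The peak cannot be assigned to either gene from these lists.

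Apart from the Ndufb4 copies, the genes that lacked a peak in some library all belonged to complex IV. All 12 ubiquitous genes of this complex had a peak in all 4 libraries, but 4 of its 8 tissue-restricted isoform genes did not. The restricted genes had medians of 33.0 and 33.9 in LSC 1 and LSC 2, against 46.3 and 31.2 in HSC 1 and HSC 2. The 7 ubiquitous partners had 80.8 and 68.7 in the LSC libraries, against 85.4 and 76.0 in the HSC libraries. Restricted isoforms with a peak numbered 4 and 4 in LSC 1 and LSC 2, against 7 and 6 in HSC 1 and HSC 2. With lists cut to equal size, each keeping its 34185 peaks with the best -log10 p, these counts were 4 and 4 in the LSC libraries and 4 and 3 in the HSC libraries.

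Subunit 8 has a muscle, a testis and a ubiquitous form. Cox8c, the testis form, had no peak in any library. Cox8b, the heart and muscle form at chr7:140898942-140900446, had no peak in LSC 1 or LSC 2 and a fold of 8.11 and 4.96 in HSC 1 and HSC 2. Cox8a, the ubiquitous form at chr19:7215158-7217616, had a fold of 205 and 151 in LSC 1 and LSC 2, against 60.7 and 68.0 in HSC 1 and HSC 2. The Cox8b summits lay 1543 bp upstream of the start in HSC 1 and 33 bp upstream in HSC 2, so the weak peaks of the HSC libraries do not mark the same spot.

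Subunits 6a and 7b showed the same order. Cox6a2, the heart and muscle form, was marked only in HSC 1, by a peak of fold 10.8 that it shared with Itgad. Cox6a1, its ubiquitous partner, had folds of 180 and 58.2 in LSC 1 and LSC 2, against 66.3 and 117 in HSC 1 and HSC 2. The HSC values belong to a peak far from its start, and at the start its folds were 180 and 58.2 in the LSC libraries, against 36.6 and 26.1 in the HSC libraries. Cox7b2, the testis form, had a fold of 3.93 in HSC 1 and 3.66 in HSC 2 and no peak in either LSC library. Its HSC summits lay 9884 and 85623 bp downstream of the start, inside a gene that spans chr5:71442823-71548205. Cox7b had folds of 32.8 and 26.4 in LSC 1 and LSC 2, against 9.82 and 21.2 in HSC 1 and HSC 2, the lowest LSC values among the ubiquitous complex IV genes.

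In the other families the restricted form carried a peak in every library. Cox4i2, a lung and oxygen-responsive form, had folds of 12.4 and 7.09 in LSC 1 and LSC 2, against 8.11 and 9.44 in HSC 1 and HSC 2. Cox4i1 had 144 and 66.5 in the LSC libraries, against 41.5 and 37.8 in the HSC libraries. Ndufa4l2, a hypoxia-induced relative of the complex IV subunit Ndufa4, had 15.7 and 7.81 in the LSC libraries, against 10.3 and 14.3 in the HSC libraries. Ndufa4 itself had 212 and 120 in the LSC libraries and 49.4 and 43.9 in the HSC libraries. Cox7a1, the heart and muscle form, had 25.6 and 16.4 in the LSC libraries, against 19.4 and 20.5 in the HSC libraries. For Cox7a2 the values were 83.0 and 56.9 in the LSC libraries and 20.4 and 37.8 in the HSC libraries, so the forms of subunit 7a lay close to each other in HSC 1.

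Cox6b2, the testis form of subunit 6b, was the exception. Its fold was 135 and 91.4 in LSC 1 and LSC 2, against 16.7 and 17.2 in HSC 1 and HSC 2. The ubiquitous Cox6b1 had 114 and 78.5 in the LSC libraries and 23.6 and 41.7 in the HSC libraries. Within each list, then, the testis form ranked above the ubiquitous form in both LSC libraries (78.2 against 72.3, and 77.5 against 72.9) and below it in both HSC libraries (57.5 against 65.4, and 53.2 against 76.0). The Cox6b2 summit lay 262 and 259 bp downstream of its start in LSC 1 and LSC 2, and 534 and 232 bp downstream in HSC 1 and HSC 2. The peak overlapped the window of Fam71e2 in all 4 libraries. Among 12 other testis genes, 5 and 4 had a peak in LSC 1 and LSC 2, against 6 and 8 in HSC 1 and HSC 2. Of all protein-coding genes 61.8% and 57.3% had one in the LSC libraries, against 68.9% and 82.4% in the HSC libraries. The 12 include Tssk6, whose strongest peak is also that of the member Ndufa13 in every library. By the rule given below, 1 of the 12 (Spata18) ranked higher in the LSC libraries and 2 (Prm2 and Ldhc) lower, where 7.25% of all genes ranked higher and 13.2% lower.

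**Figure D2:**
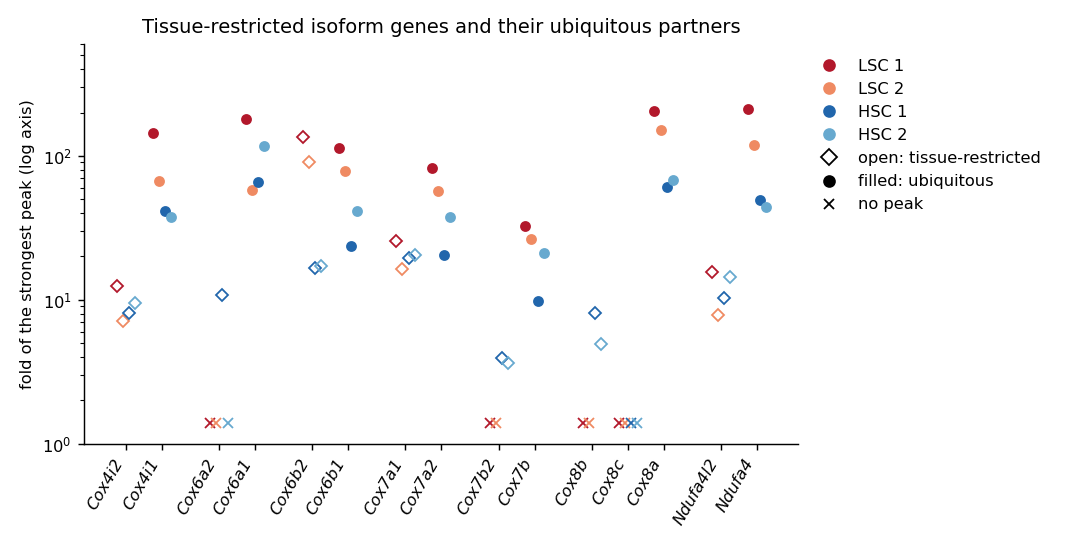
Fold of the strongest peak within 1 kb of each gene (logarithmic vertical axis) in the 4 libraries, by subunit family, with tissue-restricted genes as open diamonds, ubiquitous partners as filled circles and crosses where no peak was called. Cox8c has no peak in any library, and Cox6b2 is the only restricted gene drawn above its partner, in both LSC libraries (135 and 91.4, against 114 and 78.5 for Cox6b1).

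The members' peaks lay at gene starts. Starts were listed for 78 members. Of the members with a peak and a start, the summit of the strongest peak lay within 500 bp of a start in 92.0% and 89.3% in LSC 1 and LSC 2, and in 80.5% and 80.5% in HSC 1 and HSC 2. For all genes with a peak and a start the shares were 63.0% and 58.7% in the LSC libraries and 49.6% and 36.1% in the HSC libraries. The median summit lay just downstream of the start, by 135 and 170 bp in LSC 1 and LSC 2, and by 149 and 177 bp in HSC 1 and HSC 2. Over the 4 libraries a member's summits spanned a median of 252 bp (90 genes), against 459 bp for all genes with a peak in all 4. They lay within 500 bp of each other in 67 of the 90 members (74.4%), against 52.0% of all such genes.

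**Figure D3:**
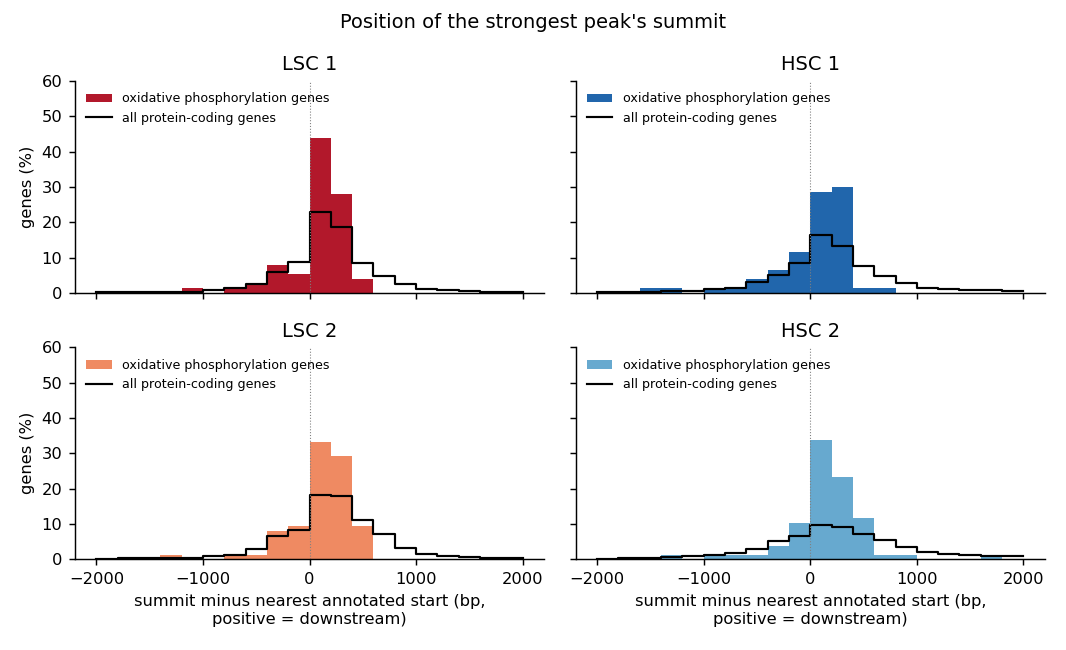
Distance of the strongest peak's summit from the nearest annotated start (horizontal axis, bp, 200 bp bins, positive downstream) as a percentage of genes (vertical axis), for members (bars) and all protein-coding genes (black line). The bars crowd just downstream of the start in each library, with 92.0% and 89.3% of members within 500 bp in LSC 1 and LSC 2 and 80.5% in both HSC libraries.

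Counting any peak with its summit within 500 bp of a start, rather than the strongest in the window, 72 and 68 of the 78 members had one in LSC 1 and LSC 2, against 67 and 66 in HSC 1 and HSC 2. All genes with a listed start had one in 43.2% and 38.4% of cases in the LSC libraries, against 41.4% and 40.3% in the HSC libraries. In all 4 libraries together 60 members (76.9%) had such a peak, against 25.6% of all genes. The LSC lists are the shorter ones and yet hold a summit near the start of more members, though LSC 2 and HSC 1 differ little (68 against 67). Over the whole window they mark fewer. Counting any peak that overlaps 1 kb around either gene end, they also mark fewer of the 96 members. Those counts were 87 and 87 in LSC 1 and LSC 2, against 91 and 90 in HSC 1 and HSC 2. Uqcrh and Ndufa13 had no summit within 500 bp of the start in any library. Their strongest peaks lay 1082 to 1398 bp and 719 to 851 bp upstream, shared with Lrrc41 and Tssk6.

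Many members shared their strongest peak with a neighbour. The peak also overlapped the window of another protein-coding gene for 46 and 51 members in LSC 1 and LSC 2 (51.1% and 56.7%), against 50 and 49 in HSC 1 and HSC 2 (53.8% and 53.3%). Over all genes with a peak the share was 30.8% and 34.2% in the LSC libraries and 28.2% and 25.6% in the HSC libraries. For some members the strongest peak lay at the neighbour. The summit assigned to Ndufs8, a core subunit, lay 5879 and 5930 bp downstream of its start in LSC 1 and LSC 2, and 5693 and 7001 bp downstream in HSC 1 and HSC 2, in each case shared with Tcirg1. That of Atp5d, the delta subunit gene, lay 7192 and 7189 bp downstream in LSC 1 and LSC 2, and 8982 and 7195 bp downstream in HSC 1 and HSC 2, shared with Midn. Only 33 members (34.4%) had a window apart from all other protein-coding genes, against 62.8% of all genes.

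Members ranked higher in the LSC libraries outnumbered those ranked lower. A gene was called higher or lower when both LSC percentiles lay above or below both HSC percentiles and the group means differed by at least 10 points. By this rule 14 members (14.6%) ranked higher and 2 (2.08%) lower, where 7.25% of all genes ranked higher and 13.2% lower. Lists of different lengths can move such ranks: a gene without a peak stood at percentile 19.1 and 21.3 in LSC 1 and LSC 2, and at 15.5 and 8.82 in HSC 1 and HSC 2. With lists of equal size 15 members ranked higher (15.6%, against 8.43% of all genes), among them all 14. In those lists 2 members ranked lower (2.08%, against 9.02%), Cox6a1 and Cox6a2, so that Cox8b lost its call. Ranked afresh among the 12122 genes with a peak in all 4 libraries, 22 of 90 members stood higher (24.4%, against 16.8% of all such genes) and 2 lower (2.22%, against 17.0%).

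The 5 largest of these differences in the LSC direction were those of Cox6b2, Uqcrb, Ndufa5, Ndufaf2 and Ndufb4. Cox6b2 differed by 22.5 points and Uqcrb by 20.3 points. Ndufa5, an accessory subunit of the peripheral arm, stood at 81.1 and 81.0 in LSC 1 and LSC 2, against 62.0 and 65.0 in HSC 1 and HSC 2, a difference of 17.6 points. Ndufaf2, an assembly factor, stood at 93.2 and 92.2 in the LSC libraries and at 65.7 and 84.6 in the HSC libraries, a difference of 17.5 points. Ndufb4 stood at 93.1 and 78.5 in the LSC libraries and at 78.4 and 59.3 in the HSC libraries, so LSC 2 barely cleared HSC 1. The other 9 differed by 11.4 to 15.8 points.

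**Figure D4:**
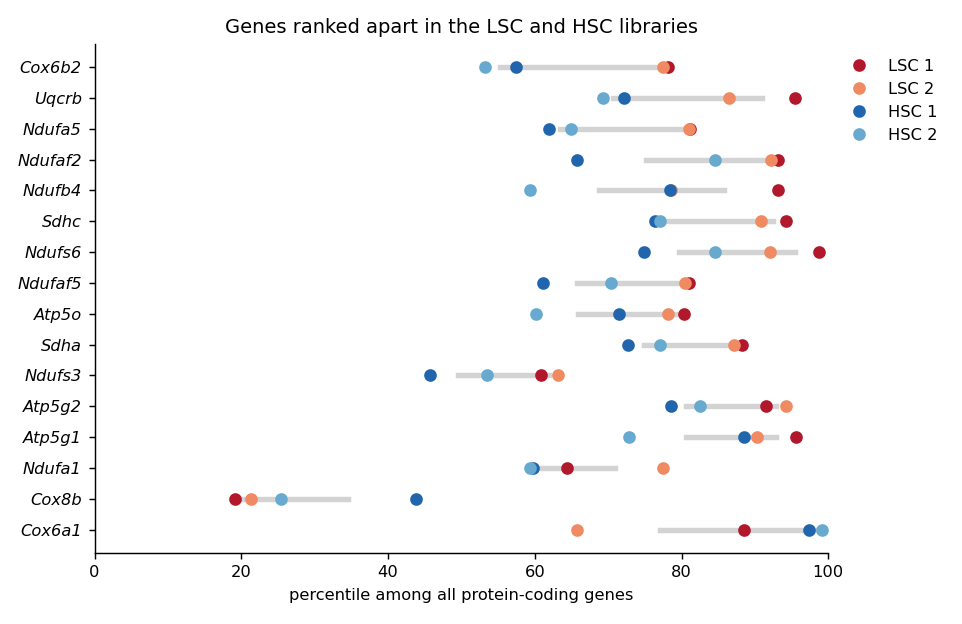
Percentile among all protein-coding genes (horizontal axis) of the 16 members ranked apart in LSC 1, LSC 2, HSC 1 and HSC 2, with grey bars joining the group means. The 14 upper genes lie to the right in the LSC libraries, by 11.4 to 22.5 points on average, and Cox8b and Cox6a1 lie to the left.

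These rankings depended on the libraries and on where the peak was looked for. Without LSC 1 the higher members numbered 15 (15.6%, against 7.9% of all genes), and without LSC 2 they numbered 23 (24.0%, against 11.1%). Without HSC 1 they numbered 28 (29.2%, close to the 28.2% of all genes), and without HSC 2 they numbered 22 (22.9%, against 10.5%). The lower members numbered 3 without LSC 1, 1 without LSC 2, 3 without HSC 1 and 5 without HSC 2. The shares of all genes ranked lower were 15.5% and 15.4% without LSC 1 and LSC 2, and 19.1% and 17.6% without HSC 1 and HSC 2. The 90 members with a peak in all 4 libraries differed by a median of 2.85 points between LSC 1 and LSC 2 and of 7.83 points between HSC 1 and HSC 2. Between an LSC and an HSC library the median was 4.57 to 6.89 points, no more than between the HSC libraries.

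Taken at the start alone, with a summit within 500 bp in both libraries of the group called higher, 6 of 78 members ranked higher in the LSC libraries (7.69%, against 4.51% of all genes with a start) and none lower (0 of 78, against 4.42%). Those 6 were Uqcr11, Ndufa6, Ndufc2, Ndufaf2, Ndufa5 and Cox6b2. In 4 of them the strongest peak of at least 1 HSC library had its summit beyond the 500 bp limit. For Ndufa6 this held in both, with the summit 8172 bp downstream in HSC 1 and 602 bp downstream in HSC 2. In HSC 1 alone it lay 659 bp downstream for Ndufc2, 534 bp for Cox6b2 and 6964 bp for Uqcr11, where the Uqcr11 peak still spanned the start. Of the 14 members called higher over the window, 12 had a listed start, and 3 of these (Ndufaf2, Ndufa5 and Cox6b2) were called at the start as well. Ndufa5 stood at 85.7 and 86.7 in LSC 1 and LSC 2 on this measure, against 73.3 and 78.5 in HSC 1 and HSC 2. Of the 33 members whose windows met no other gene's, 2 ranked higher (6.06%, against 5.03% of such genes) and 1 lower (3.03%, against 13.0%).

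Cox6a1 was the member with the largest difference in the HSC direction, at 88.5 and 65.7 in LSC 1 and LSC 2, against 97.4 and 99.1 in HSC 1 and HSC 2, or -21.1 points. Its strongest peak was not the same one in both groups. The summit lay 3 and 406 bp downstream of the start in LSC 1 and LSC 2, and 7748 and 7750 bp downstream, in a peak shared with Gatc and Triap1, in HSC 1 and HSC 2. At the start itself Cox6a1 stood at 91.4 and 76.2 in the LSC libraries and at 87.2 and 77.1 in the HSC libraries, a difference of 1.65 points.

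**Figure D5:**
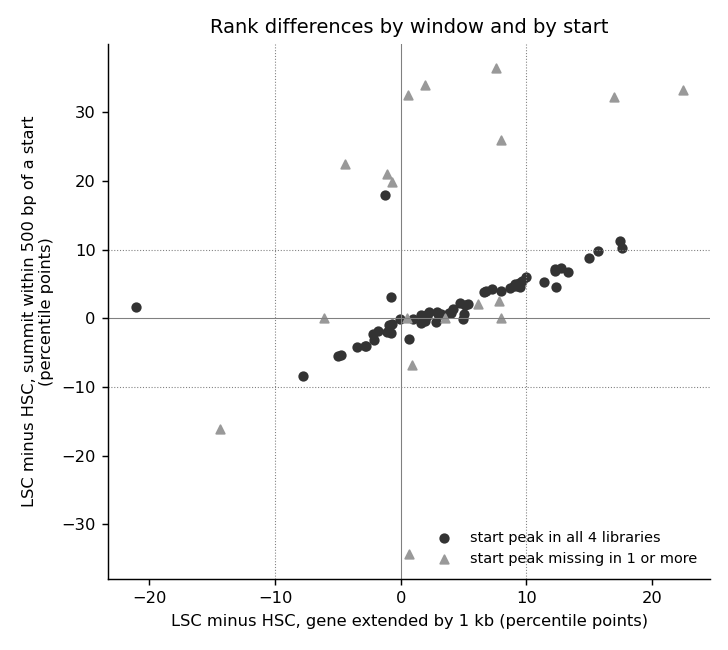
Difference in mean percentile, LSC minus HSC, for the strongest peak within 1 kb of the gene (horizontal axis) and for the strongest peak with a summit within 500 bp of a start (vertical axis), for the 78 members with a listed start; dotted lines mark 10 points. Cox6a1 is the point at -21.1 on the horizontal and 1.65 on the vertical axis, and triangles are members lacking a start peak in at least 1 library.

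The rest of the pathway was occupied as widely. All 55 other listed genes of the pathway had a peak in all 4 libraries, against 55.4% of all genes. In the LSC libraries 7 of them ranked higher (12.7%, against 7.25% of all genes) and 1 lower (1.82%, against 13.2%). Cyc1, the cytochrome c1 subunit of complex III that the naming rule leaves out, had a fold of 315 and 349 in LSC 1 and LSC 2, against 57.0 and 166 in HSC 1 and HSC 2, with percentiles of 94.6 to 100. Cycs, the electron carrier cytochrome c, stood at 97.3 and 98.0 in the LSC libraries and at 93.7 and 96.1 in the HSC libraries. The 24 assembly genes of complexes III and IV had medians of 82.6 and 77.8 in LSC 1 and LSC 2, against 74.5 and 70.4 in HSC 1 and HSC 2, with 3 ranked higher and 0 lower.

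Of 12 regulators of these genes none ranked higher in the LSC libraries and 1, Yy1, ranked lower. For 12 genes these counts lie near the shares of all genes, 7.25% higher and 13.2% lower. Yy1 stood at 77.3 and 64.2 in LSC 1 and LSC 2, against 91.2 and 83.4 in HSC 1 and HSC 2. Tfb2m, a mitochondrial transcription factor, stood highest in LSC 1, LSC 2 and HSC 1, at 99.2 and 98.9 in the LSC libraries and at 97.3 and 95.4 in the HSC libraries. Ppargc1a, a coactivator prominent in muscle and brown fat, stood lowest in LSC 1, LSC 2 and HSC 2, at 51.1 and 48.8 in the LSC libraries, against 65.7 and 47.5 in the HSC libraries. Markers of other cell types differed in rank as well: all 10 listed neutrophil genes ranked lower in the LSC libraries, against 13.2% of all genes. Their medians were 46.6 and 54.3 in LSC 1 and LSC 2, against 72.3 and 69.5 in HSC 1 and HSC 2. Peaks were called on 9 and 9 of them in LSC 1 and LSC 2 and on 10 and 10 in HSC 1 and HSC 2, and Retnlg had none in the LSC libraries. Lower ranks were also found for 5 of 8 B cell, 3 of 8 T cell, 4 of 12 HSC and 3 of 12 striated muscle genes. Of these lists only the HSC genes had any ranked higher (2). Of 10 granulocyte-monocyte progenitor genes 4 ranked higher and 2 lower. The part of these lists in the members' ranks was not tested.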

How the data were processed

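Sub1 CUT&Tag peak lists of 2 LSC and 2 HSC libraries were analysed. Per the labels' protocols, libraries were made with 17 to 20 PCR cycles. The submitters' processing notes name FastQC 0.11.5, Bowtie2 2.2.9, MACS2 and ChIPseeker, with mm10 as the build; duplicate handling and any control are not given in the sources used here. The authors' lists give per peak a fold, which is a ratio to background, a −log10 p, a −log10 q and a score.

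Genes and promoters came from RefSeq tables of GRCm38.p6, the mm10 assembly. Peaks overlapping a gene extended by 1 kb, by at least 1 bp, were counted. The gene table gives no exons, so introns, exons and untranslated regions were not told apart. Nearest starts used all starts listed for a gene. Named genes were the members lacking a peak, those in 1 group alone, the 5 highest and 5 lowest, the 5 ranked furthest apart in each direction, and all restricted isoforms with their partners; others are examples of their class. Members and lists were chosen with earlier results of these data known. No test across genes was made. The ranking was tested on simulated data. Alternatives were the list size, window, summit, −log10 q, ranking and left-out libraries. Python 3.11.15, NumPy 2.4.6, pandas 2.3.3 and matplotlib 3.10.9 were used.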

Additional observations from a re-analysis of the deposited data

How the results depend on the processing

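The difference in occupied members, a mean of 2.5 fewer in LSC than in HSC libraries, turned round with list size: it was 1 more with lists of equal size and 7 more with lists of 8546 peaks. The share of all genes with a peak turned round as well. LSC minus HSC was -16.1 percentage points as deposited, 3.93 in equal lists and 3.5 in the lists of 8546. The members' difference was 3.5 more for summits within 500 bp of a start, an alternative chosen after seeing the data. It was -1.5 at a −log10 q of at least 10, -1.5 for summits in the window, and -3.5 for a 3 kb extension or for gene ends alone. In percentage points the all-gene difference was -0.0829 at a start (genes with a listed start) and -12.3 at that q. For summits it was -16.2, with 3 kb -17.0 and at gene ends -9.78. Occupied restricted isoforms, a mean of 2.5 fewer, were 0.5 more in equal lists, 1 more in the lists of 8546 and 1.5 fewer (-1.5) at the stricter q. Members with a peak in both LSC and neither HSC library, 0 as deposited, numbered 1 in equal lists (Cox4i2) and 3 in the lists of 8546. These were 1.04% of members against 2.57% of all genes, and 3.12% against 2.2%. The reverse count, 2 as deposited, was 0 in both kinds of shortened list, against 0.493% of all genes in equal lists and 0.982% in the lists of 8546. At the stricter q, without the extension and for summits it was 1 (1.04%), against 5.0%, 7.42% and 7.81% of all genes. The 14 members ranked higher became 33 with no minimum difference (34.4%, against 33.4% of all genes), 22 when ranked afresh (also chosen after seeing the data), 6 at the start and 2 in windows apart; the first and the last lie near the share of all genes. The 2 ranked lower became 0 without the extension, for summits and at the start. The shares of all genes there were 13.1%, 13.0% and 4.42% (the last among genes with a listed start). Members ranked lower numbered 1 in the lists of 8546, with 3 kb and in windows apart, against 6.35%, 13.2% and 13.0%. When ranked by width they numbered 10 (10.4%, against 13.6%), and with no minimum difference 8 (8.33%, against 20.6%). Without each library in turn, the values ran between -3 and -2 for occupied members and for isoforms, 0 and 0 for LSC alone, 2 and 3 for HSC alone, 15 and 28 for ranked higher, and 1 and 5 for ranked lower. Over all genes LSC alone ran between 0.142% and 0.772%, and HSC alone between 8.49% and 19.9%. The labels do not say what a shared replicate number means. Deviations of same-numbered libraries from their group means correlated at 0.108 over all genes and 0.308 over genes with a peak in all 4, and with 2 pairs this does not settle whether they are paired. Comparing them as a replicate block can change only the rankings, which stayed at 14 and 2. The counts of occupied genes do not use the pairing, so the block could not change them. Over all alternatives together, 49 of 83 values stayed within 1.5 times the main count or within 1 SD, among them the block's counts of occupied genes. Depth is unknown, so an uncalled peak does not show that Sub1 is absent.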

Other observations

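Of 19 annotated pseudogenes of the members, 10 lay apart from every protein-coding gene's window. None of these 10 had a peak in LSC 1 or LSC 2, and 2 and 5 had one in HSC 1 and HSC 2, with a fold of at most 11.3. Reads from such copies can be hard to place, as for Ndufb4b and Ndufb4c, so a missing peak there does not show a lack of signal.

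The mitochondrial genome, which encodes the remaining subunits of the respiratory chain, was covered by 1 peak spanning nearly all of it in LSC 1 (width 16284 bp, fold 106), LSC 2 (16283 bp, 64.2) and HSC 2 (16299 bp, 64.6). HSC 1 had 6 separate peaks there, with folds between 11.8 and 26.8. These peaks were not counted in any comparison above.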
